A study of Cucumis sativus with 12 samples.

Results

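Messenger RNA of cucumber (Cucumis sativus) stigma and style at anthesis, the day the flower opens, was compared between the Csspt Csalc double mutant and the Csalc single mutant, across all genes. The comparison uses 6 of the 12 libraries of the study, 3 biological replicates of each genotype. The Csalc plants carry a mutation of ALCATRAZ, and the double mutant carries mutations of both ALCATRAZ and SPATULA, so a Csalc mutation is shared by both groups and the contrast asks what the loss of SPATULA function adds to it. The other 6 libraries, 3 of wild type (WT) and 3 of the Csspt single mutant, give the SPATULA mutation in a background without a Csalc mutation and are used for that contrast beside it. The sources used here name no alleles or lines and do not say how many plants a sample pools.

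SPATULA and ALCATRAZ are closely related basic helix-loop-helix (bHLH) transcription factors. In Arabidopsis, SPATULA is needed for the style, the septum and the transmitting tract, the secretory tissue through which pollen tubes grow, and ALCATRAZ for the layer along which the ripe fruit opens, with partly overlapping roles in the young pistil. The transmitting tract lays down an extracellular matrix rich in pectins and arabinogalactan proteins, and downstream regulators such as the WIP-type zinc finger protein NO TRANSMITTING TRACT are known from the same species.

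The libraries held 32155631 to 37986853 counts. Csalc replicate 3 stood apart from all other libraries. Its log2 CPM correlated at 0.814 to 0.817 with Csalc replicates 1 and 2 and at 0.832 to 0.856 with the double mutant libraries, whereas Csalc replicates 1 and 2 correlated with the double mutant at 0.939 to 0.963. The clock gene LHY (Csa6G095910), which peaks at dawn in Arabidopsis, stood at 512 and 473 FPKM (fragments scaled to transcript length and library size) in Csalc replicates 1 and 2 and at 2.47 in replicate 3. Csa1G066550, named (3S,6E)-nerolidol synthase after an enzyme of floral scent, stood at 1760, 1540 and 0.681 FPKM in the same order. Fold changes of single genes against Csalc are therefore given from all 12 libraries and from the 11 libraries without Csalc replicate 3, except in the comparison of backgrounds, where most come from the 11. Carpel regulators, which do not separate stigma and style from other carpel tissue, summed to 507, 445 and 809 FPKM in Csalc replicates 1 to 3 and to 506 to 626 FPKM in the double mutant. Csalc replicate 3 also had 808 FPKM of photosystem genes, against 2410 to 5220 FPKM in the other libraries, and 190 FPKM of pollen markers, against 67.8 to 132 FPKM. Whether its tissue and stage are those of its label cannot be told from the files.

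A group of 3 linoleate 9-lipoxygenase genes, which oxygenate linoleic and linolenic acid, had at most 14.5 FPKM in any Csalc library and at least 66.9 FPKM in every double mutant library. When Csalc replicate 3 was left out, 7 of 14 tested xylem markers (50%) and 5 of 20 phloem markers (25%) were called higher, against 6.24% of all genes. With 12 libraries 0 of 14 xylem markers and 1 of 19 phloem markers were called. Among the genes that fell with and without Csalc replicate 3 were the boundary gene LSH4, beta-galactosidase 3, a WIP2 zinc finger gene and the wax gene CER3. The P450 gene CYP77A3, pectinesterase 67 and a rhamnogalacturonate lyase gene (Csa3G892760) fell in both fits too. Across all of these falling genes the log2 fold changes lay between -1.30 and -3.71 with 12 libraries. With all 12 libraries 87 genes were higher (0.462% of 18850 tested) and 47 lower (0.249%) by edgeR's quasi-likelihood test at a Benjamini-Hochberg adjusted p under 0.05, the threshold for a called gene throughout. Without Csalc replicate 3 the same test called 1190 genes higher (6.24% of 19060) and 941 lower (4.94%). Leaving that library out kept all 134 calls of the 12-library fit, each with its sign (0.711% and 11.2% of the tested genes were called in either direction). In all 134 the 3 Csalc libraries lay on one side of the 3 double mutant libraries, as they did, higher in the double mutant, in 8.27% and, lower, in 6.22% of all 18850 genes tested. The calls were made from these same libraries, so this separation is a description and no independent support.

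The gap between those counts goes with a single library. The biological coefficient of variation shared by all genes was 0.363 with Csalc replicate 3 and 0.193 without it. Of the 2131 genes called without it, 796 (4.18% of the genes tested) also kept all 3 Csalc libraries apart from the double mutant in the same direction. In the other 1335 the 3 Csalc libraries were not fully apart from the double mutant in that direction, and which Csalc library overlapped was not counted. Of the 2129 called genes that could be tested in both fits, 285 had the opposite sign when Csalc replicate 3 was included. The counts from 12 libraries were 68 higher and 63 lower without Csalc replicate 2, within 1.5 times of those with it, and 1 or both moved further with each other library. They were 5 higher and 8 lower without double mutant replicate 1, 12 and 7 without replicate 2 and 2 and 3 without replicate 3. They were 52 and 39 without Csalc replicate 1, 142 and 51 without Csspt replicate 1, 42 and 20 without Csspt replicate 2 and 34 and 22 without Csspt replicate 3. They were 42 and 18, 39 and 18, and 27 and 16 without WT replicates 1, 2 and 3. An edgeR fit of the 6 compared libraries alone called 0 of 18497 genes with Csalc replicate 3 (1227 had an unadjusted p under 0.05), and 415 higher and 226 lower without it.

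**Figure D1:**
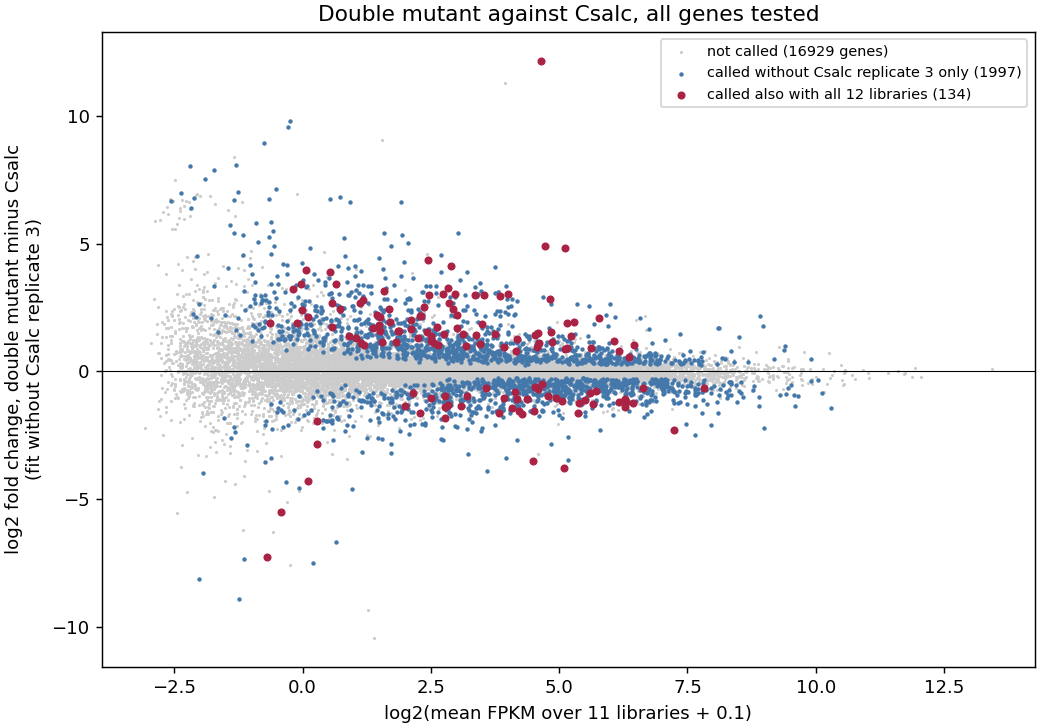
Log2 fold change of the double mutant against Csalc (vertical axis, fit without Csalc replicate 3) against log2 of the mean FPKM plus 0.1 over 11 libraries (horizontal axis), 1 point per gene. The 134 genes called with all 12 libraries (red) lie on both sides of 0 among the 1997 called only without Csalc replicate 3 (blue), and linoleate 9S-lipoxygenase A is the highest red point.

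A run of 3 lipoxygenase IDs (Csa2G023900, Csa2G023910 and Csa2G023920) were all among the 12 largest named rises without Csalc replicate 3. No count of linoleate 9S-lipoxygenase A (Csa2G023910) was found in the 3 Csalc libraries, and it reached 118, 69 and 87.2 FPKM in double mutant replicates 1 to 3. It also had 0 counts in the 3 WT and 3 Csspt libraries. Against a floor of 3 counts over the Csalc group it was at least 580-fold higher in the double mutant, and at least 389-fold higher against Csalc replicates 1 and 2 (edgeR, adjusted p = 0.0169 with 12 libraries and 0.00198 without Csalc replicate 3). Linoleate 9S-lipoxygenase B (Csa2G023920) stood at 2.17, 3.18 and 6.86 FPKM in Csalc and at 108, 66.9 and 87.8 FPKM in the double mutant. The log2 fold change was 4.51 ± 0.69 (SE; edgeR, adjusted p = 0.0246) with 12 libraries and 4.90 ± 0.75 (adjusted p = 0.00532) without Csalc replicate 3. Probable linoleate 9S-lipoxygenase 5 (Csa2G023900) stood at 3.84, 3.46 and 14.5 FPKM in Csalc and at 146, 97.9 and 97.1 FPKM in the double mutant. On the log2 scale the change was 4.10 ± 0.74 (edgeR, adjusted p = 0.0389) and 4.84 ± 0.75 (adjusted p = 0.00550) in the same order. In Csspt replicate 1 the last 2 genes stood at 14.2 and 20.8 FPKM, above the 1.89 to 4.45 FPKM of Csspt replicates 2 and 3. Reads may be split between such similar genes, since no source used here says how reads that map to several places were counted.

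Beyond these 3, the list of jasmonate synthesis and lipoxygenase genes held 5 more called rises and 1 fall without Csalc replicate 3, so 8 of 44 tested members were higher and 1 lower (median log2 0.35, against 0.00 over all genes). That was 20.5% called, against 11.2% of all genes. With 12 libraries 3 of 43 were higher and 0 lower. All called members were lipoxygenases by name in both fits, and no other jasmonate synthesis gene of the list was called. Alpha-dioxygenase 2 (Csa1G024920), an enzyme that oxygenates fatty acids at another carbon, stood at 16.4, 10.4 and 16.6 FPKM in Csalc and 77.9, 45.1 and 37.7 FPKM in the double mutant. The log2 change was 1.92 ± 0.28 (edgeR, adjusted p = 0.0200) with 12 libraries and 1.90 ± 0.31 (adjusted p = 0.00671) without Csalc replicate 3. This gene, like the other genes described below as chosen after their values were seen, was not picked by the naming rule.

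**Figure D2:**
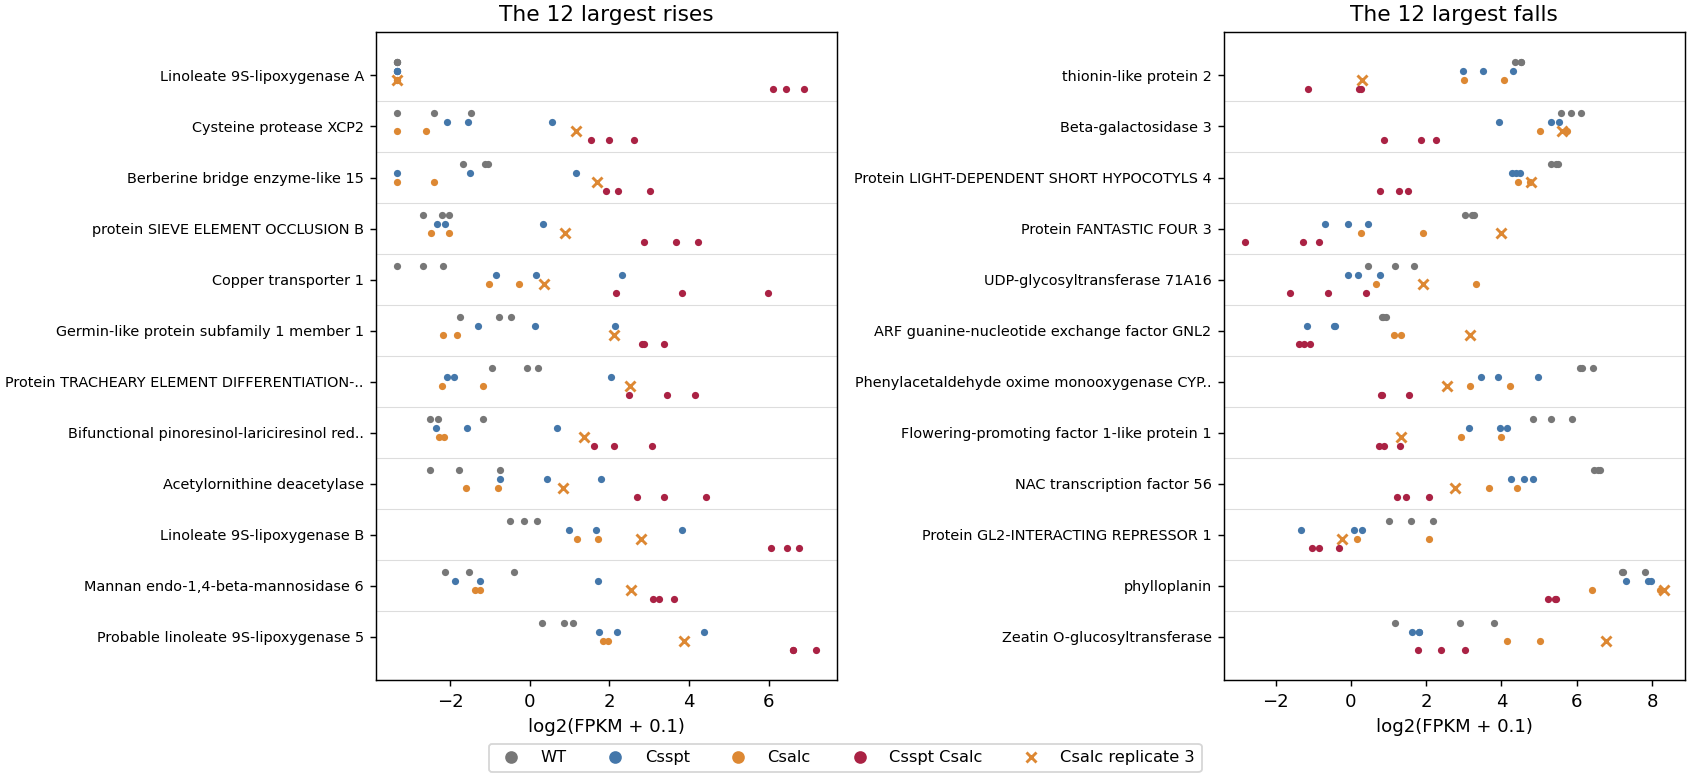
Expression of the 12 largest rises (left) and 12 largest falls (right) by the naming rule, as log2(FPKM + 0.1) with 1 point per library in each genotype and Csalc replicate 3 as a cross. For cysteine protease XCP2 and the other xylem-type genes the cross lies near the double mutant points, while for linoleate 9S-lipoxygenase A and LIGHT-DEPENDENT SHORT HYPOCOTYLS 4 it lies with the other Csalc libraries.

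Markers of conducting tissue were a second group of rises without Csalc replicate 3. The called NAC and MYB transcription factor genes, counted further below, are not among these markers and moved both ways. Of 14 tested xylem markers 7 were higher and 0 lower without Csalc replicate 3 (50% called, against 11.2% of all genes, median log2 1.63). Of 29 secondary wall and lignin polymerisation genes 8 were higher and 0 lower (27.6% called, median 0.86). The 2 lists share 18 genes, among them 6 of those called. With 12 libraries 0 members of either list were called, and the medians were 1.52 and 0.59, against -0.05 over all genes. The summed level of the xylem markers was 25.7, 21.7 and 43.2 FPKM in Csalc replicates 1 to 3 and 74, 62 and 63.9 FPKM in the double mutant. The groups did not overlap, and Csalc replicate 3 lay nearest the double mutant. In bulk tissue, more cells of a type and more RNA per cell cannot be told apart.

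Cysteine protease XCP2 (Csa4G664420), a protease of xylem vessels as they die, stood at 0, 0.0651 and 2.15 FPKM in Csalc and 6.08, 2.80 and 3.89 FPKM in the double mutant. TRACHEARY ELEMENT DIFFERENTIATION-RELATED 6 (Csa7G320040), a protein of forming vessels, stood at 0.118, 0.341 and 5.66 FPKM in Csalc and 17.7, 5.55 and 10.9 FPKM in the double mutant. In both, Csalc replicate 3 was far above its 2 sister libraries. The log2 fold changes were 6.77 ± 1.38 (edgeR, adjusted p = 0.0147) and 5.35 ± 1.31 (adjusted p = 0.0283) without Csalc replicate 3, and 2.77 ± 1.42 (adjusted p = 0.420) and 2.70 ± 1.29 (adjusted p = 0.393) with it. Cellulose synthase subunits 7 and 8, which build the secondary wall and were added here after their values were seen, went the same way. Subunit 7 (Csa2G070320) stood at 0.162, 0.128 and 0.765 FPKM in Csalc and 1.37, 0.983 and 1.31 FPKM in the double mutant, with a log2 fold change of 2.95 ± 0.54 (edgeR, adjusted p = 0.00969) without Csalc replicate 3 and 1.95 ± 0.64 (adjusted p = 0.212) with it. Subunit 8 (Csa1G470270) stood at 0.197, 0.133 and 0.833 FPKM and 1.41, 1.10 and 1.25 FPKM, with 2.78 ± 0.58 (adjusted p = 0.0156) and 1.84 ± 0.64 (adjusted p = 0.240). Laccase-11 (Csa6G445190), an enzyme of lignin polymerisation, stood at 0.281, 0.105 and 2.45 FPKM in Csalc and 6.92, 2.90 and 4.56 FPKM in the double mutant, with 4.51 ± 0.83 (adjusted p = 0.00977) and 2.55 ± 0.95 (adjusted p = 0.274).

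Of 20 tested phloem and sieve element markers 5 were higher and 0 lower without Csalc replicate 3 (25% called, against 11.2% of all genes, median log2 0.80). With 12 libraries 1 of 19 was higher (median 0.46). All 5 carry the name SIEVE ELEMENT OCCLUSION B, a protein that plugs sieve tubes after wounding in legumes and related plants. In all 5 the groups did not overlap, as in 8.27% of all genes tested in the higher direction. The 5 were called from these same libraries, so this separation is a description only. The gene called with 12 libraries, Csa2G349660, stood at 0.909, 0.885 and 1.69 FPKM in Csalc and 3.15, 3.19 and 3.25 FPKM in the double mutant, with a log2 fold change of 1.54 ± 0.28 (edgeR, adjusted p = 0.0419) and, without Csalc replicate 3, 1.73 ± 0.28 (adjusted p = 0.00622). Another, Csa2G196900, stood at 0.145, 0.0804 and 1.74 FPKM in Csalc and 18.5, 7.20 and 12.7 FPKM in the double mutant, with 6.65 ± 1.03 (adjusted p = 0.00563) without Csalc replicate 3 and 4.49 ± 1.14 (adjusted p = 0.111) with it. The summed level of the whole phloem list overlapped between the groups, at 273, 303 and 347 FPKM in Csalc and 406, 340 and 323 FPKM in the double mutant.

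Large rises shared a pattern over libraries. Of the 282 genes that rose over 4-fold without Csalc replicate 3, 235 (83.3%) were higher in Csalc replicate 3 than in both other Csalc libraries. Among the double mutant libraries, 233 (82.6%) were highest in replicate 1. The shares over all genes tested were 57.7% and 42.5%. Both counts are descriptions, since the 282 genes were chosen for low values in Csalc replicates 1 and 2 and high values in the double mutant. The 67 genes that fell over 4-fold were the mirror image, with 52 below both other Csalc libraries in Csalc replicate 3. Of all 19060 genes tested, 6362 were. In the Csspt libraries, which the choice did not compare, replicate 1 was the highest in 219 of the 282 rises (77.7%, against 34.7% of all genes tested). The xylem marker sum moved in the same way, at 43.7 FPKM in Csspt replicate 1 and 25.8 and 22.9 FPKM in Csspt replicates 2 and 3. The part of the amount of xylem in these rises was not tested. Without both Csalc replicate 3 and double mutant replicate 1, 668 genes were called higher and 578 lower, and all 134 genes called with 12 libraries were among them in the same direction.

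**Figure D3:**
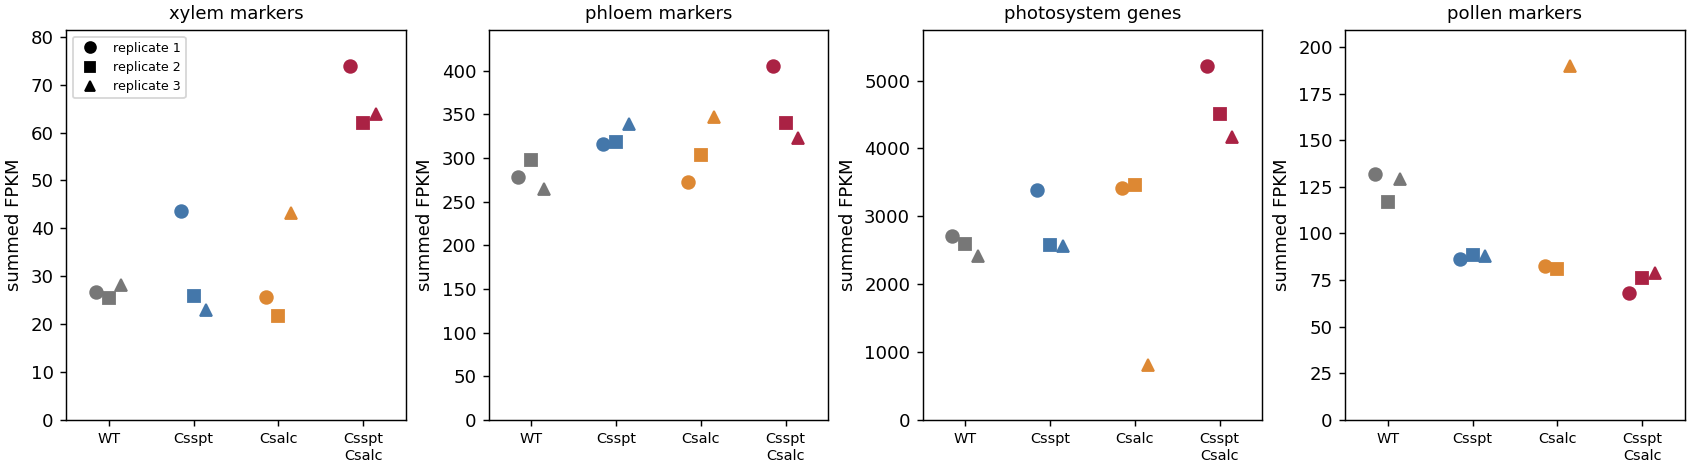
Summed FPKM of 4 gene lists (one panel each, vertical axes from 0) in every library, by genotype, with the marker shape giving the replicate. The xylem sum is highest in the 3 double mutant libraries and raised in Csspt replicate 1 and Csalc replicate 3, and Csalc replicate 3 is the lowest library for photosystem genes (808 FPKM) and the highest for pollen markers (190 FPKM, against 117 to 132 FPKM in WT).

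Other rises were called with and without Csalc replicate 3. HVA22-like protein f (Csa6G423340), of a family of stress-responsive membrane proteins, stood at 0.700, 0.809 and 1.67 FPKM in Csalc and 24.4, 10.2 and 16.8 FPKM in the double mutant. In log2 terms the difference was 4.07 ± 0.49 (edgeR, adjusted p = 0.0149) with 12 libraries and 4.36 ± 0.53 (adjusted p = 0.00252) without Csalc replicate 3. The 18 largest named rises with 12 libraries held 3 genes named Lectin. The most abundant, Csa4G501830, stood at 1.76, 6.40 and 1.47 FPKM in Csalc and 47.2, 27.7 and 32.6 FPKM in the double mutant, with 3.44 ± 0.58 (edgeR, adjusted p = 0.0307) and 3.03 ± 0.48 (adjusted p = 0.00617). The other 2, Csa4G502330 and Cucumis_sativus_newGene_195, had log2 fold changes of 3.66 ± 0.67 (edgeR, adjusted p = 0.0419) and 3.42 ± 0.62 (adjusted p = 0.0419) with 12 libraries and 3.26 ± 0.61 (adjusted p = 0.0102) and 3.04 ± 0.58 (adjusted p = 0.0113) without Csalc replicate 3, and may share reads with it. Peroxisomal (S)-2-hydroxy-acid oxidase GLO4 (Csa3G645980), chosen after its values were seen, stood at 6.43, 6.29 and 8.98 FPKM in Csalc and 21.2, 16.5 and 16.7 FPKM in the double mutant, with 1.38 ± 0.13 (edgeR, adjusted p = 0.00290) and 1.41 ± 0.13 (adjusted p = 0.000592).

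The falls held the gene with the lowest adjusted p of the named genes. LIGHT-DEPENDENT SHORT HYPOCOTYLS 4 (LSH4, Csa3G383780), in Arabidopsis a nuclear protein of organ boundaries, stood at 27.2, 21.5 and 27.6 FPKM in Csalc and 1.62, 2.77 and 2.35 FPKM in the double mutant. All 3 Csalc libraries, replicate 3 included, were several-fold above all 3 double mutant libraries. The log2 fold change was -3.44 ± 0.21 (edgeR, adjusted p = 0.000189) with 12 libraries and -3.52 ± 0.20 (adjusted p = 6.94e-05) without Csalc replicate 3. Beta-galactosidase 3 (Csa2G249880), of a family that trims galactose from cell wall polymers, stood at 32.7, 53.9 and 48.6 FPKM in Csalc and 1.74, 3.56 and 4.66 FPKM in the double mutant, with -3.71 ± 0.47 (edgeR, adjusted p = 0.0168) and -3.79 ± 0.48 (adjusted p = 0.00285). Phylloplanin (Csa3G159420), a secreted surface protein of leaf glands in tobacco, stood at 295, 85 and 317 FPKM in Csalc and 42.6, 43.7 and 37.5 FPKM in the double mutant, with -2.42 ± 0.40 (edgeR, adjusted p = 0.0299) and -2.30 ± 0.41 (adjusted p = 0.00874). GNL2 (Csa2G004740), an ARF guanine-nucleotide exchange factor needed for pollen germination in Arabidopsis, stood at 2.11, 2.41 and 8.91 FPKM in Csalc and 0.375, 0.322 and 0.288 FPKM in the double mutant, with -3.60 ± 0.45 (edgeR, adjusted p = 0.0149) and -2.86 ± 0.23 (adjusted p = 0.000435).

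Of the carpel and transmitting tract regulators 4 of 24 tested were higher and 1 lower without Csalc replicate 3 (20.8% called, against 11.2% of all genes). With 12 libraries 1 of 23 was higher and 1 lower. The median log2 fold change was 0.03 and -0.07. The lower gene was a WIP2 zinc finger gene (Csa3G810580), whose Arabidopsis namesake is NO TRANSMITTING TRACT. It stood at 9.27, 10.2 and 20.4 FPKM in Csalc and 6.74, 4.66 and 3.84 FPKM in the double mutant, and at 33.9 to 34.3 FPKM in WT. In log2 units the change was -1.30 ± 0.23 (edgeR, adjusted p = 0.0329) with 12 libraries and -1.04 ± 0.17 (adjusted p = 0.00698) without Csalc replicate 3. The gene higher in both fits was an AGAMOUS gene (Csa1G467100), a MADS-box gene of stamen and carpel identity, at 3.05, 4.33 and 7.52 FPKM in Csalc and 12.9, 10.8 and 15.6 FPKM in the double mutant, with 1.49 ± 0.25 (edgeR, adjusted p = 0.0316) and 1.74 ± 0.23 (adjusted p = 0.00331). The other 3 higher genes without Csalc replicate 3 were YABBY genes. The more abundant gene named SPATULA (Csa2G356640) stood at 11.8, 12.2 and 5.87 FPKM in Csalc and 13.2, 12.1 and 8.44 FPKM in the double mutant, with 0.15 ± 0.31 (edgeR, adjusted p = 0.869) and -0.20 ± 0.14 (adjusted p = 0.414). The files do not say which gene ID was mutated, and a mutation need not lower its transcript.

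NAC transcription factor 56 (Csa3G100800) stood at 21.2, 12.6 and 6.73 FPKM in Csalc and 2.68, 4.11 and 2.24 FPKM in the double mutant, below the 87.4 to 98.4 FPKM of WT. The log2 fold change was -2.58 ± 0.27 (edgeR, adjusted p = 0.00122) without Csalc replicate 3, and -2.19 ± 0.43 (adjusted p = 0.0504) with it, just above the threshold. PIN2, an auxin efflux carrier (Csa1G427480), stood at 0.928, 0.809 and 3.59 FPKM in Csalc and 0.621, 0.339 and 0.177 FPKM in the double mutant. Its groups did not overlap, and neither fit called it, at -1.26 ± 0.37 (edgeR, adjusted p = 0.0512) without Csalc replicate 3 and -2.06 ± 0.52 (adjusted p = 0.108) with it.

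Pectin-modifying enzymes moved both ways. Of 88 tested 12 were higher and 10 lower without Csalc replicate 3 (25% called, against 11.2% of all genes). Of 87 tested 3 were higher and 2 lower with 12 libraries. Probable pectinesterase 67 (Csa3G166360), of the enzymes that de-esterify pectin, stood at 23, 22.3 and 26 FPKM in Csalc and 8.74, 7.47 and 8.68 FPKM in the double mutant. The log2 fold change was -1.48 ± 0.13 (edgeR, adjusted p = 0.00290) with 12 libraries and -1.54 ± 0.13 (adjusted p = 0.000484) without Csalc replicate 3. A rhamnogalacturonate lyase B gene (Csa3G892760), which cleaves the pectin backbone, stood at 22.6, 20.6 and 28.2 FPKM in Csalc and 9.87, 5.97 and 6.33 FPKM in the double mutant, with -1.64 ± 0.25 (edgeR, adjusted p = 0.0243) and -1.64 ± 0.26 (adjusted p = 0.00620). Against these, a pectinesterase/pectinesterase inhibitor 22 gene (Csa1G569210) stood at 2.56, 4.42 and 3.98 FPKM in Csalc and 22, 13.6 and 16.4 FPKM in the double mutant, with 2.28 ± 0.31 (edgeR, adjusted p = 0.0186) and 2.21 ± 0.35 (adjusted p = 0.00588). A polygalacturonase gene (Csa3G838140), which hydrolyses pectin, stood at 2.46, 0.879 and 1.21 FPKM in Csalc and 24.3, 11.4 and 7.15 FPKM in the double mutant, with 3.22 ± 0.61 (edgeR, adjusted p = 0.0471) and 2.99 ± 0.65 (adjusted p = 0.0191). In all 4 genes the Csalc and double mutant libraries did not overlap, as in every gene called with 12 libraries, so this adds no support. Over all genes tested the share was 8.27% higher and 6.22% lower. A second rhamnogalacturonate lyase B gene (Csa3G892750), chosen after its values were seen, went the other way from Csa3G892760. It had 4.02 ± 0.91 (edgeR, adjusted p = 0.0216) without Csalc replicate 3 and 2.78 (adjusted p = 0.211) with 12 libraries.

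Other wall genes were called without Csalc replicate 3 and not with 12 libraries. Of 60 callose synthases and beta-1,3-glucanases 15 were higher and 1 lower (26.7% called, against 11.2% of all genes). The rises were led by callose synthase 5 (Csa2G302180), which makes the callose of pollen walls in Arabidopsis. It stood at 0.162, 0.0616 and 0.758 FPKM in Csalc and 2.33, 1.14 and 1.48 FPKM in the double mutant, with a log2 fold change of 3.74 ± 0.71 (edgeR, adjusted p = 0.0112) and, with 12 libraries, 2.49 ± 0.77 (adjusted p = 0.188). Of 53 expansins and xyloglucan enzymes 8 were higher and 7 lower (28.3% called). Of 59 arabinogalactan, extensin and proline-rich proteins 8 were higher and 3 lower (18.6% called). In each of these 3 lists 0 members were called with 12 libraries, and the median log2 fold changes were 0.38, -0.02 and 0.06 without Csalc replicate 3 and -0.13, -0.30 and -0.41 with it.

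Genes of the plant surface were split. Of 96 tested cuticle and surface lipid genes 15 were higher and 7 lower without Csalc replicate 3 (22.9% called, against 11.2% of all genes). Of 93 tested 3 were higher and 3 lower with 12 libraries. CER3 (Csa1G294020), an enzyme of wax alkane synthesis, stood at 36.7, 47.2 and 73.7 FPKM in Csalc, at 13.6, 18 and 14.2 FPKM in the double mutant and at 9.73 to 11.2 FPKM in WT. Its log2 fold change against Csalc was -1.70 ± 0.23 (edgeR, adjusted p = 0.0174) with 12 libraries and -1.55 ± 0.22 (adjusted p = 0.00392) without Csalc replicate 3. CYP77A3 (Csa6G044530), of a cytochrome P450 family that hydroxylates cutin monomers in Arabidopsis petals, stood at 83.6, 71.8 and 91.3 FPKM in Csalc and 34.6, 29.4 and 29.3 FPKM in the double mutant, with -1.36 ± 0.12 (edgeR, adjusted p = 0.00290) and -1.41 ± 0.10 (adjusted p = 0.000222). In the other direction, a GDSL esterase/lipase gene (Csa5G650560) stood at 7, 4.34 and 9.41 FPKM in Csalc and 28.5, 19.3 and 18.6 FPKM in the double mutant, with 1.74 ± 0.24 (edgeR, adjusted p = 0.0193) and 1.86 ± 0.26 (adjusted p = 0.00383). Heparanase-like protein 2 (Csa3G165650), related to enzymes that cleave glucuronate from arabinogalactan proteins, stood at 0.651, 1.98 and 0.920 FPKM in Csalc and 8.19, 7.78 and 10.8 FPKM in the double mutant, with 2.92 ± 0.41 (edgeR, adjusted p = 0.0193) and 2.67 ± 0.41 (adjusted p = 0.00530). WT had 5.83 to 10.7 FPKM of it, a range that holds 2 of the 3 double mutant libraries. Caffeic acid 3-O-methyltransferase 1 (Csa4G091880), of lignin monomer synthesis, stood at 25.7, 28.2 and 17.7 FPKM in Csalc and 78.7, 140 and 145 FPKM in the double mutant, with 2.35 ± 0.36 (edgeR, adjusted p = 0.0243) and 2.08 ± 0.33 (adjusted p = 0.00588).

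The list of CrRLK1L receptor kinases and RALF peptides, drawn up by name, had 0 of 17 members higher and 3 lower without Csalc replicate 3. That was 17.6% called, against 11.2% of all genes, and 0 of 16 were called with 12 libraries. Besides 2 genes named RALF-like 4, the lower ones held the receptor kinase HERK 1 (Csa6G302130). Its log2 fold change was -0.52 ± 0.10 (edgeR, adjusted p = 0.0123) without Csalc replicate 3 and -0.25 ± 0.23 (adjusted p = 0.673) with it. RALF-like 4 (Csa6G484570), whose Arabidopsis namesake is a signal peptide that keeps the pollen tube wall intact, stood at 1020, 795 and 458 FPKM in Csalc and 349, 329 and 404 FPKM in the double mutant, against 2180 to 2310 FPKM in WT. Its groups did not overlap, and the log2 fold change was -1.42 ± 0.13 (edgeR, adjusted p = 0.000592) without Csalc replicate 3 and -1.09 ± 0.31 (adjusted p = 0.157) with it. A second RALF-like 4 gene (Csa6G199790) stood at 95.8, 137 and 5.76 FPKM in Csalc and 11.9, 19.9 and 33.8 FPKM in the double mutant, where Csalc replicate 3 was the lowest of the 6 libraries, with -2.49 ± 0.33 (edgeR, adjusted p = 0.00347) without Csalc replicate 3 and -1.93 ± 0.84 (adjusted p = 0.347) with it. LLG1 (Csa7G186190), a GPI-anchored partner of FERONIA-type receptors, was chosen after its values were seen. It stood at 26.7, 23.1 and 38.6 FPKM in Csalc and 17.1, 16.6 and 18.1 FPKM in the double mutant, with -0.70 ± 0.13 (edgeR, adjusted p = 0.0477) and -0.62 ± 0.12 (adjusted p = 0.0130).

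Of 26 tested MADS-box genes 2 were higher and 6 lower without Csalc replicate 3 (30.8% called, against 11.2% of all genes, median log2 -0.23). With 12 libraries 1 of 25 tested was higher and 1 lower. The lower gene was AGL15 (Csa3G686200), an embryo and organ ageing regulator in Arabidopsis, at 8.50, 6.25 and 17.9 FPKM in Csalc and 3.37, 2.74 and 2.81 FPKM in the double mutant, with -1.76 ± 0.27 (edgeR, adjusted p = 0.0254) and -1.40 ± 0.19 (adjusted p = 0.00383). Of 71 bHLH genes 6 were higher and 4 lower without Csalc replicate 3 (14.1% called), and 0 and 2 with 12 libraries. Those 2 were bHLH149 (Csa1G555600), at 17.6, 21.4 and 27.5 FPKM in Csalc and 11.6, 10 and 8.02 FPKM in the double mutant, and bHLH153 (Csa4G011680), at 63.4, 57.1 and 95.8 FPKM and 34.3, 40.2 and 38 FPKM. Their log2 fold changes were -1.11 ± 0.14 (edgeR, adjusted p = 0.0168) and -0.87 ± 0.15 (adjusted p = 0.0366) with 12 libraries, and -1.08 ± 0.14 (adjusted p = 0.00323) and -0.77 ± 0.14 (adjusted p = 0.00974) without Csalc replicate 3. FAMA (Csa3G131940), a bHLH factor of stomatal guard cells chosen after its values were seen, stood at 3.43, 2.97 and 2.34 FPKM in Csalc and 9.70, 7.61 and 6.55 FPKM in the double mutant, with 1.45 ± 0.25 (edgeR, adjusted p = 0.0329) and 1.21 ± 0.19 (adjusted p = 0.00621). SHOOT MERISTEMLESS (Csa7G041370), the homeobox gene of the shoot meristem, stood at 4.17, 2.40 and 4.70 FPKM in Csalc and 11.1, 7.79 and 8.51 FPKM in the double mutant, with 1.33 ± 0.23 (edgeR, adjusted p = 0.0322) and 1.38 ± 0.25 (adjusted p = 0.00882). The list of 84 homeodomain genes held 7 higher and 3 lower without Csalc replicate 3, near the share over all genes. Without that library 8 NAC genes were higher and 4 lower of 51 (23.5% called), and 6 MYB genes higher and 4 lower of 72 (13.9%). Examples were chosen after their values were seen. NAC domain-containing protein 7 (Csa5G160180) and MYB20 (Csa3G303630) were higher, and NAC domain-containing protein 43 (Csa5G148470) and MYB58 (Csa6G136580) lower. Of 52 WRKY genes 4 were higher and 4 lower (15.4%). The NAC, MYB and WRKY lists had 0 members called with 12 libraries.

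Hormone genes gave few calls that held in both fits. Of 114 auxin genes 8 were higher and 12 lower without Csalc replicate 3 (17.5% called), and 0 of 111 were called with 12 libraries. Of 100 ethylene genes 5 were higher and 6 lower (11% called, the share over all genes being 11.2%), and 0 of 97 were called with 12 libraries. Of 32 abscisic acid genes 6 were higher and 1 lower without Csalc replicate 3 (21.9% called). A receptor gene named PYL4 (Csa5G217670) was the 1 called with 12 libraries, at 1.22, 1.51 and 1.42 FPKM in Csalc and 3.92, 4.27 and 2.93 FPKM in the double mutant. It had 1.44 ± 0.24 (edgeR, adjusted p = 0.0299) with 12 libraries and 1.32 ± 0.24 (adjusted p = 0.00856) without Csalc replicate 3. A second gene of that name (Csa3G730890) stood at 1.20, 1.53 and 28.1 FPKM in Csalc and 4.86, 3.64 and 2.89 FPKM in the double mutant. Its sign changed, with 1.37 ± 0.31 (edgeR, adjusted p = 0.0210) without Csalc replicate 3 and -1.19 ± 0.88 (adjusted p = 0.589) with it. Of 41 cytokinin genes 3 were higher and 4 lower without Csalc replicate 3 (17.1% called). With 12 libraries 0 of 40 were higher and 1 lower. The 1 lower gene, a LOG gene (Csa7G019910) whose enzyme releases active cytokinin, had 0 counts in the double mutant and 109 in Csalc, 37 of them in replicates 1 and 2. Against a floor of 3 counts over the double mutant group it was at least 39.8-fold lower, and at least 20.1-fold lower than Csalc replicates 1 and 2 alone (edgeR, adjusted p = 0.0322 with 12 libraries and 0.00974 without Csalc replicate 3). Of 19 gibberellin genes 1 was higher and 2 lower without Csalc replicate 3 (15.8% called). With 12 libraries 1 of 18 tested was higher and 0 lower. The higher one, gibberellin-regulated protein 14 (Csa3G119310), stood at 3.19, 2.81 and 8.33 FPKM in Csalc and 23.6, 14.9 and 14.7 FPKM in the double mutant, with 2.00 ± 0.38 (edgeR, adjusted p = 0.0477) and 2.46 ± 0.34 (adjusted p = 0.00373).

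The medians of several lists moved with Csalc replicate 3. Of 191 cytosolic ribosomal protein genes 12 were higher and 0 lower without it (6.28% called, against 11.2% of all genes; median log2 0.15), and 0 were called with it (median -0.07). Of 67 cell cycle and replication genes 6 were higher and 2 lower (11.9% called, near the share over all genes), with a median of 0.49 without it and -0.32 with it. The replication licensing gene MCM2 (Csa3G722880) stood at 1.18, 1.44 and 16.7 FPKM in Csalc and 3.12, 2.72 and 3.13 FPKM in the double mutant. On the log2 scale the change was 1.09 ± 0.19 (edgeR, adjusted p = 0.00799) without Csalc replicate 3 and -0.87 ± 0.72 (adjusted p = 0.631) with it. Of 28 core histone genes 1 was higher and 5 lower without Csalc replicate 3 (21.4% called, median -0.06 without it, -0.95 with it). Photosystem and chlorophyll genes summed to 3420, 3460 and 808 FPKM in Csalc and 5220, 4510 and 4170 FPKM in the double mutant. Of 58 tested 4 were called higher and 1 lower without Csalc replicate 3 (8.62% called). The largest rise of the 4, chlorophyll a-b binding protein 3 (Csa1G445860), stood at 6.07, 10.2 and 1.97 FPKM and 39.8, 29.5 and 19.7 FPKM, with 1.76 ± 0.29 (edgeR, adjusted p = 0.00676) and 2.23 ± 0.53 (adjusted p = 0.0907). Of 21 clock genes 1 was called (4.76%), lower, without Csalc replicate 3. It was EARLY FLOWERING 4 (Csa5G202370), an evening gene, at 63.3, 35.7 and 410 FPKM in Csalc and 21.1, 14.1 and 13.8 FPKM in the double mutant, with -1.70 ± 0.24 (edgeR, adjusted p = 0.00395) without Csalc replicate 3 and -3.17 ± 0.67 (adjusted p = 0.0611) with it.

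Of 14 tested pollen markers 0 were higher and 2 lower without Csalc replicate 3 (14.3% called, against 11.2% of all genes), and their sum was 82.5, 80.7 and 190 FPKM in Csalc and 67.8, 75.8 and 78.8 FPKM in the double mutant. All 3 double mutant sums lay below all 3 Csalc sums, and the part of pollen RNA in the results was not tested. Of 22 ovule and seed markers 1 was higher and 2 lower (13.6% called), with sums of 225 to 246 FPKM in Csalc and 243 to 250 FPKM in the double mutant, ranges that overlapped. Of 22 pollen markers 4, and of 36 ovule and seed markers 8, were at 0 in all 6 libraries.

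**Figure D4:**
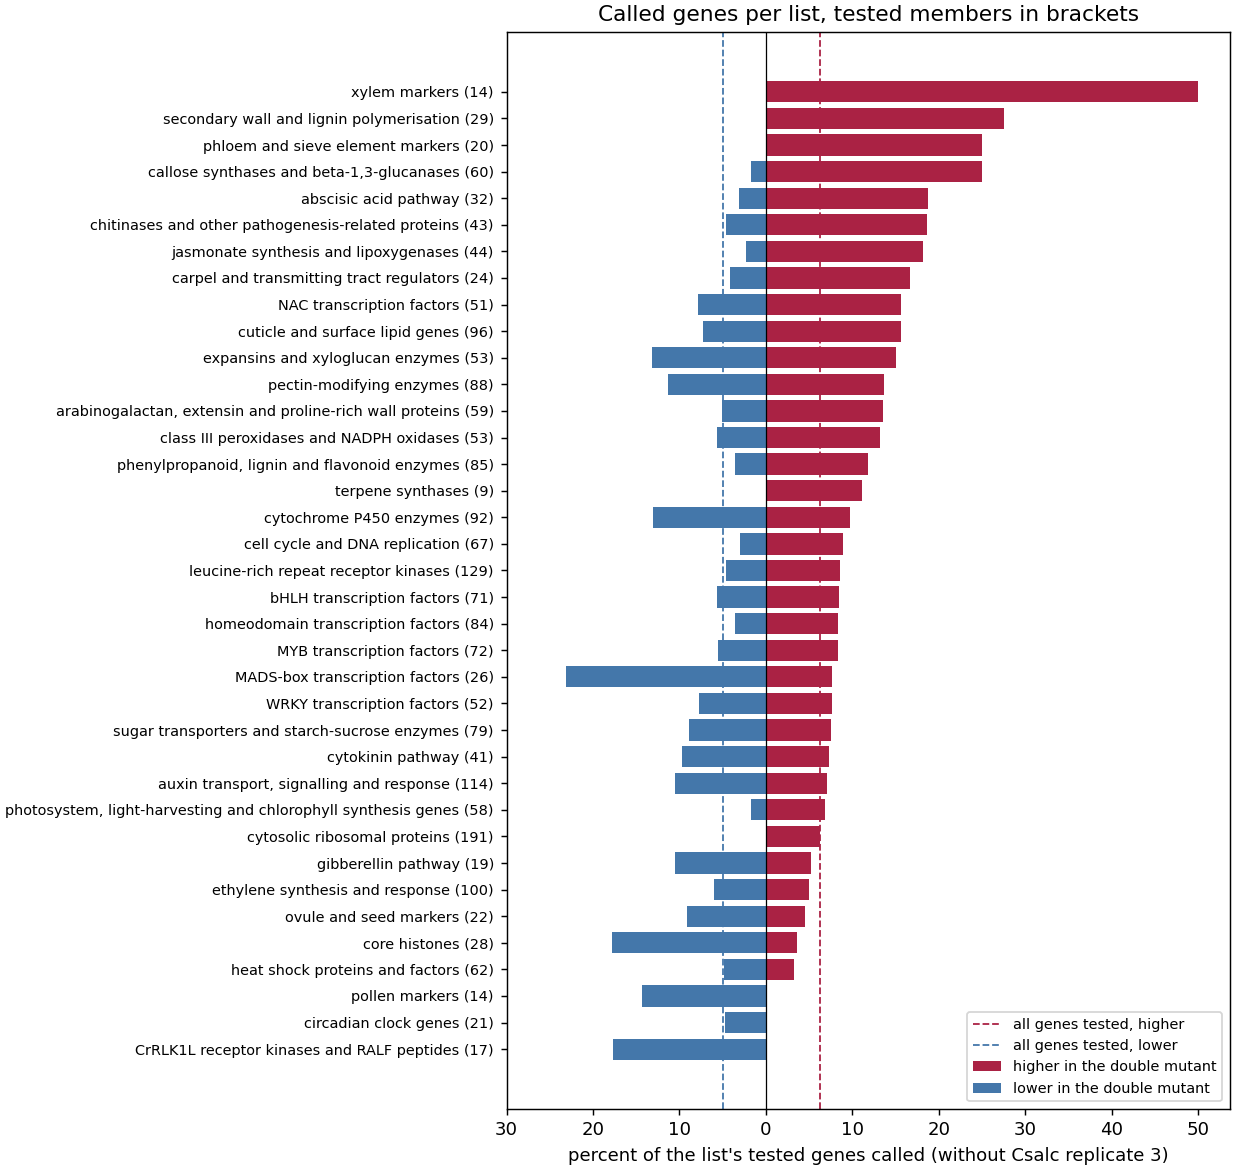
Percent of each list's tested genes called higher (right, red) or lower (left, blue) in the double mutant than in Csalc, without Csalc replicate 3, with dashed lines for all genes tested (6.24% higher, 4.94% lower). Xylem markers have the largest share higher (7 of 14), and MADS-box genes the largest share lower (6 of 26).

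The SPATULA mutation was also compared in the background without a Csalc mutation, as Csspt against WT. That contrast called 379 genes higher (1.99%) and 521 lower (2.73%, 4.72% in all) without Csalc replicate 3 in the fit, and 1 higher (0.00531%) and 10 lower (0.0531%, 0.0584% in all) with all 12 libraries. The 2 contrasts share no library, and the values that follow come from the fit without Csalc replicate 3. They had 372 called genes in common, 17.5% of the 2131 called against Csalc and 41.3% of the 900 called against WT. Of these, 137 were higher in both, 227 lower in both and 8 opposite. Among the 2131 genes called against Csalc, 1865 (87.5%) had the same sign in Csspt against WT, compared with 65.4% of all genes tested, and Pearson's r of the 2 log2 fold changes was 0.32 across genes, which are not independent replicates. The genes that rose over 4-fold against Csalc had a median log2 fold change of 2.89 there and 1.00 in Csspt against WT, where 13 of the 282 were called higher and 2 lower. The 67 that fell over 4-fold had medians of -2.59 and -0.84, and 17 were called lower in Csspt. Both sets were chosen by the size of their change against Csalc. The larger medians there follow in part from that choice and do not compare the strength of the mutation between backgrounds.

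Several falling genes changed by similar amounts in both backgrounds. Pectinesterase 67 (Csa3G166360) had -1.54 ± 0.13 against Csalc and -1.45 ± 0.12 (edgeR, adjusted p = 0.000422) in Csspt against WT, where it stood at 16.3 to 16.9 and 36.3 to 50.9 FPKM. CYP77A3 (Csa6G044530) had -1.41 ± 0.10 and -1.13 ± 0.09 (edgeR, adjusted p = 0.000482), and the rhamnogalacturonate lyase B gene (Csa3G892760) -1.64 ± 0.26 and -1.93 ± 0.24 (adjusted p = 0.00458). The difference between backgrounds in these 3 genes was -0.09 ± 0.17, -0.28 ± 0.14 and 0.28 ± 0.36, with adjusted p = 0.858, 0.404 and 0.770 by edgeR's test of the interaction. WIP2 (Csa3G810580) was less alike, with -1.04 ± 0.17 and -1.89 ± 0.16 (edgeR, adjusted p = 0.000482), and the difference of 0.86 ± 0.24 was not called (adjusted p = 0.179). Other genes had a change against Csalc and a smaller, uncalled one of opposite sign in Csspt against WT. Among them were CER3 (Csa1G294020, with 0.36 ± 0.20 in Csspt against WT, edgeR, adjusted p = 0.320) and heparanase-like protein 2 (Csa3G165650, with -0.13 ± 0.31, adjusted p = 0.843). The test of the difference itself did not call them, at -1.90 ± 0.29 (edgeR, adjusted p = 0.0697) and 2.80 ± 0.50 (adjusted p = 0.0904).

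Over all genes, the difference between the backgrounds was called in 3 genes that were higher (0.0157%) and 2 that were lower (0.0105%, 0.0262% in all) without Csalc replicate 3. That count depends on the tool, since DESeq2 called 330 higher and 253 lower in the same libraries. With 12 libraries edgeR called 0 genes, with 1274 at an unadjusted p under 0.05, and DESeq2 called 35 higher and 23 lower. LSH4 (Csa3G383780) was the lower gene with an informative name. Without Csalc replicate 3 it fell by 3.52 on the log2 scale against Csalc and by 1.10 in Csspt against WT, from 40.1 to 45.5 FPKM in WT to 19.5 to 22.5 FPKM in Csspt, and the difference was -2.41 ± 0.25 (edgeR, adjusted p = 0.0335). Among the higher genes were SAUR21 (Csa2G258780), of the small auxin-induced RNA family, and methylesterase 17 (Csa5G645150), which in Arabidopsis hydrolyses methylated auxin. SAUR21 stood at 6.06, 6.85 and 2.93 FPKM in Csalc and 14.7, 10.5 and 14.4 FPKM in the double mutant, and at 10.5 to 13.2 FPKM in WT and 6.41 to 6.71 FPKM in Csspt. Without Csalc replicate 3 it rose against Csalc by 0.93 ± 0.18 (edgeR, adjusted p = 0.0113) and fell in Csspt by 0.97 (adjusted p = 0.0112) on the log2 scale.

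**Figure D5:**
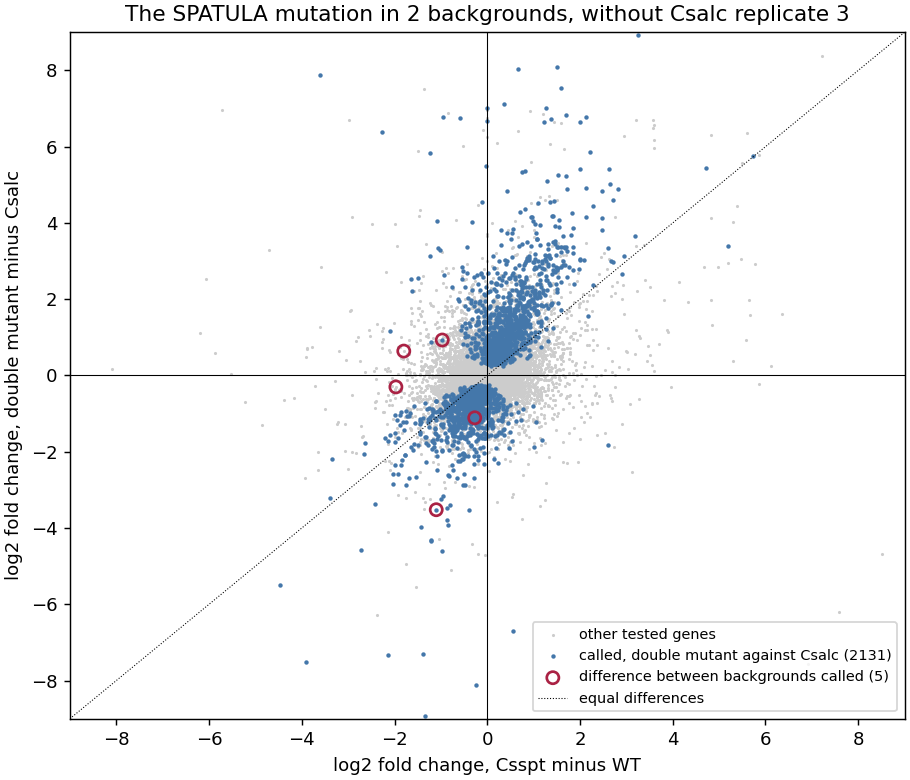
Log2 fold change of the double mutant against Csalc (vertical axis) against that of Csspt against WT (horizontal axis), 1 point per tested gene, fit without Csalc replicate 3, with 8 genes outside the axes. Most of the 2131 genes called against Csalc (blue) lie in the quadrants of equal sign, and the 5 genes whose difference between backgrounds was called are ringed.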

How the data were processed

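Stigma and style RNA of 12 libraries was compared, 3 biological replicates per genotype per the labels and the series' design text. The submitters' processing notes name HISAT2, HISAT and DESeq2, with versions, genome build, annotation and strand handling not given in the sources used here. Deposited values are whole-number read counts, per the file headers, for 24345 genes, 1097 of them new models. The FPKM columns, so named per the file headers, were scaled to gene length and depth before being deposited; they show levels and serve 2 alternatives. Names are the authors' Swiss-Prot or else non-redundant protein names. Since no gene ID was found in the RefSeq table, coordinates and sequences are left out. DM in a column name was taken to mean the double mutant.

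The main test of the counts was edgeR 4.0.16 under R 4.3.3 (filterByExpr with a minimum count of 10, TMM, glmQLFit, glmQLFTest, no block) with all 4 genotypes in one fit, with 12 libraries and again without Csalc replicate 3. Benjamini-Hochberg adjustment ran over all tested genes, with a threshold of 0.05, and the interaction was a contrast in the same fits. Each standard error was obtained as log2 fold change over the square root of the F statistic. limma 3.58.1 and DESeq2 1.42.0 served as alternatives. The procedure was tested on simulated data. Lowest chi-square per degree of freedom between 2 replicates was 14.1, so none was merged.

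The comparison, gene lists and tests were chosen with earlier results of these data known, and 4 list patterns were corrected after the files were seen. Named genes are the 12 largest rises and 12 largest falls called without Csalc replicate 3, with groups not overlapping, an informative name and a higher group of 2 FPKM or more; up to 3 called members per list; up to 3 genes per direction of the interaction; and genes named SPATULA, WIP, NAC56, PIN2, LHY and nerolidol synthase. Of these, those the text needs are described. The 18 largest rises and 18 largest falls called with 12 libraries, and single genes said so in the text, were added after the values were seen. Intervals and floors cover counting error only.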

Additional observations from a re-analysis of the deposited data

Results flagged for a closer look

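In 5 genes the effect of the SPATULA mutation differed between the Csalc and the wild-type background by edgeR's interaction test without Csalc replicate 3. In log2 units, as (double mutant minus Csalc) minus (Csspt minus WT), the difference was 2.43 ± 0.30 (adjusted p = 0.0425) for methylesterase 17 (Csa5G645150) and 1.90 ± 0.24 (adjusted p = 0.0425) for SAUR21 (Csa2G258780). It was 1.67 ± 0.21 (adjusted p = 0.0425) for a glutamic acid-rich protein gene (Csa3G236550), -0.84 ± 0.11 (adjusted p = 0.0425) for a gene of an uncharacterized protein (Csa4G162850) and -2.41 ± 0.25 (adjusted p = 0.0335) for LSH4 (Csa3G383780). With 12 libraries the values were 0.96 ± 0.85 (edgeR, adjusted p = 0.809), 2.26 ± 0.48 (0.612), 0.76 ± 0.61 (0.796), -0.43 ± 0.54 (0.855) and -2.34 ± 0.27 (0.0980) in that order, so none was called. Methylesterase 17 stood at 11.6, 10.6 and 91 FPKM in Csalc and the glutamic acid-rich protein gene at 5.27, 4.66 and 23.6, so that replicate 3 was several-fold above its sister libraries in both. The uncharacterized gene stood at 137, 135 and 45.1 FPKM. In LSH4 Csalc replicate 3 lay with the other Csalc libraries, at 27.6 FPKM beside 27.2 and 21.5.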

How the results depend on the processing

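With 12 libraries the double mutant against Csalc gave 87 genes higher and 47 lower. Leaving out 1 library at a time moved these counts between 2 and 1190 higher and between 3 and 941 lower, lowest without double mutant replicate 3 and highest without Csalc replicate 3, which had a voom quality weight of 0.0362. Normalisation with DESeq2's size factors (87 and 49) and no low-count filter (79 and 39) stayed within 1.5 times. Higher and lower counts were 0 and 0 with the compared groups only, 415 and 226 with those groups without Csalc replicate 3, 561 and 379 with DESeq2, 1861 and 1486 with DESeq2 without Csalc replicate 3, 746 and 479 with limma voomWithQualityWeights, 242 and 78 with limma on log2(FPKM + 1), and 156 and 60 on log2(FPKM + 0.1). Without Csalc replicate 3 and double mutant replicate 1, a setting chosen after seeing the data, they were 668 and 578. Of the 134 calls, 12, 18 and 5 were kept without double mutant replicates 1, 2 and 3, and 61, 74 and 134 without Csalc replicates 1, 2 and 3. DESeq2 kept 134 and the quality weights 133. The direction held in all 134 in every count-based setting. It held in all 132 that the FPKM fits tested, since their filter left out the LOG gene (Csa7G019910) and peroxidase 4 (Csa1G586250).

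Same-numbered Csalc and double mutant libraries had correlations of deviations of -0.18, 0.21 and -0.25, and other pairs ran from -0.39 to 0.32. With 3 libraries per group, Csalc replicate 3 among them, these values neither show nor exclude a pairing by number. A replicate block gave 7 genes higher and 9 lower, and 948 and 663 without Csalc replicate 3. The interaction gave 0 and 0 genes with 12 libraries, 0 to 3 and 0 to 2 when 1 library was left out, 1 and 0 with the replicate block without Csalc replicate 3, 35 and 23 with DESeq2, 330 and 253 with DESeq2 without Csalc replicate 3, 43 and 40 with the quality weights, 1 and 1 in both FPKM fits, and 0 and 1 in the setting chosen after seeing the data. The compared groups alone give no interaction.

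Of the 162 genes picked by the naming rules with a value in both fits, 17 had the opposite sign without Csalc replicate 3, of which 11 were called there and 0 with 12 libraries. Of 55 genes described here, 5 changed sign under some setting, and the cause was not tested. The second PYL4 gene (Csa3G730890), the second rhamnogalacturonate lyase B gene (Csa3G892750) and HERK 1 (Csa6G302130) are not among the 55. In the order without Csalc replicate 3, compared groups only without it, replicate block without it, DESeq2 without it, quality weights and the setting chosen after seeing the data, MCM2 (Csa3G722880, -0.87 with 12 libraries) had 1.09, 1.09, 1.08, 1.09, 1.00 and 1.08. Methylesterase 17 (Csa5G645150, -0.83) had 0.64, 0.64, 0.62, 0.63, 0.53 and 0.50. SPATULA (Csa2G356640, 0.15) had -0.20, -0.19, -0.13, -0.20, -0.20 and -0.30. Nerolidol synthase (Csa1G066550, 0.09) had -0.50, -0.49, -0.51, -0.50, -0.21 and -0.33, and -0.06 without double mutant replicate 2. LHY (Csa6G095910, 0.39) had -0.20, -0.20, -0.14, -0.20, -0.01 and -0.09. When 1 library at a time was left out, the values ran from -1.35 to 1.09 for MCM2, -1.23 to 0.64 for methylesterase 17, -0.20 to 0.36 for SPATULA, -0.50 to 0.61 for nerolidol synthase and -0.20 to 0.86 for LHY.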
